A study of Mus musculus with 20 samples.

Results

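Rab GTPases are small switch proteins, each of which marks particular membranes of the cell and directs the budding, transport, tethering or fusion of vesicles there. The genes described here are the protein-coding mouse genes whose symbol is Rab followed by a number, with or without a letter. The RefSeq gene table held 59 of them among 21627 genes that code for protein (autosomes 1 to 19 and the X). The question was which of these genes carried ATF4, the bZIP transcription factor of the integrated stress response, at their ends, in their bodies or within 50 kb, and how that divided by compartment.

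ATF4 had been mapped by CUT&Tag, an assay that tethers a transposase to an antibody on chromatin, so that DNA beside the bound protein is cut, tagged and sequenced. The cells were wild-type C2C12, an established line of mouse myoblasts. They received 100 nM thapsigargin, which inhibits calcium uptake into the endoplasmic reticulum (ER) and so stresses that organelle, or DMSO, the solvent, for 6 h. Each treatment had 2 ATF4 samples, but the values here are the authors' peak positions, 1 list per treatment, with 8619 peaks for thapsigargin and 803 for DMSO. No replicate error can therefore be given, the read depth behind each list is unknown, and a gene with a peak in 1 list alone is not shown to differ in binding. Peak positions do not measure expression, so the myoblast label could not be checked by marker levels. Among its marker genes, 1 of 7 (Chrna1) had a thapsigargin peak at a gene end, against 15.1% of all protein-coding genes. None of the 7 had a DMSO peak, against 1.29%, and none of 5 genes of other cell types had either. Counts this small do not bear on the label.

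A Rab protein cycles between an active form bound to GTP and an inactive form bound to GDP. Exchange factors switch it on, GTPase-activating proteins switch it off, and a lipid tail added after translation holds it in the membrane. Rab1 and Rab2 serve the export of cargo from the ER. Other Rabs act at the Golgi, at early, recycling and late endosomes, at lysosomes and autophagosomes, on secretory vesicles, on melanosomes and at the cilium.

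Rab1a and Rab7 were the members that carried an ATF4 peak at a gene end in both treatments. Rab1a, which drives transport between the ER and the Golgi, lies on chromosome 11 from 20201412 to 20226856 (mm10, plus strand). Its thapsigargin peak spanned 20200576 to 20201823, and its DMSO peak 20200795 to 20201332. Both were centred upstream of the gene start, by 212.5 bp for the thapsigargin peak and by 348.5 bp for the DMSO peak, which stopped short of the start. Rab7, which governs traffic to late endosomes and lysosomes, lies on chromosome 6 from 87999106 to 88045270 (minus strand). The peak spanned 88044578 to 88045607 in thapsigargin and 88044839 to 88045583 in DMSO, over both of its annotated starts.

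At each of these genes the DMSO peak lay wholly inside the thapsigargin peak. How often this held over the whole DMSO list was not counted. At Rab1a the thapsigargin peak measured 1248 bp and the DMSO peak 538 bp, a ratio of 2.32, with centres 136 bp apart. Rab7 had widths of 1030 bp for thapsigargin and 745 bp for DMSO, a ratio of 1.38, with centres 118.5 bp apart. Width also depends on read depth and the calling threshold, whose part in these ratios was not tested.

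The stretch before the start of these promoters is shown because it was covered by peaks of both lists. Each line gives the 250 bases before the most upstream start, 5′ to 3′ on the gene's strand, from RefSeq on GRCm38.p6. For Rab1a (chr11:20201162-20201411, plus strand) the capitals mark the 171 bases that the DMSO peak covered. For Rab7 (chr6:88045271-88045520, minus strand) they mark the letters TGACGCAA, discussed with the motifs.
Rab1a: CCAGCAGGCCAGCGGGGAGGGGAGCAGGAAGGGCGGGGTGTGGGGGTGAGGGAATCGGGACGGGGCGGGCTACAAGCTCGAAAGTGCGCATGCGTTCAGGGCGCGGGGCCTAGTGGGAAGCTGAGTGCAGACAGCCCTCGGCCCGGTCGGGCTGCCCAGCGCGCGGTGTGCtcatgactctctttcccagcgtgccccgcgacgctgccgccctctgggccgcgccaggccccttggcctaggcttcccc
Rab7: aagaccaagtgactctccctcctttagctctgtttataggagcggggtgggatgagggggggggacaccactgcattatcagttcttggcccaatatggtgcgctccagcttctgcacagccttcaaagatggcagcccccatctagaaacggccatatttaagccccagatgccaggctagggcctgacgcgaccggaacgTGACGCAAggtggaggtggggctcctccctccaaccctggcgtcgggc
The Rab1a stretch held 72.4% G and C with 23 CG dinucleotides, and the Rab7 stretch 59.2% with 10.

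In thapsigargin, 19 of the 59 Rab genes were marked at a gene end, meaning that the centre of an ATF4 peak lay no more than 1 kb from it (32.2%, 95% exact binomial interval 20.6% to 45.6%), against 15.1% of all protein-coding genes. The DMSO list gave 2 of 59 (3.39%, interval 0.413% to 11.7%), against 1.29% of all genes. Both lists marked the same 2, against 1.27% of all genes. These intervals, like all those given here, cover counting error only, and no test of the difference from other genes was made. Of the thapsigargin-marked genes, 2 of 19 Rab genes (10.5%) were also marked in DMSO, beside 274 of 3266 of all genes (8.39%). The first of these shares rests on 2 genes.

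**Figure D1:**
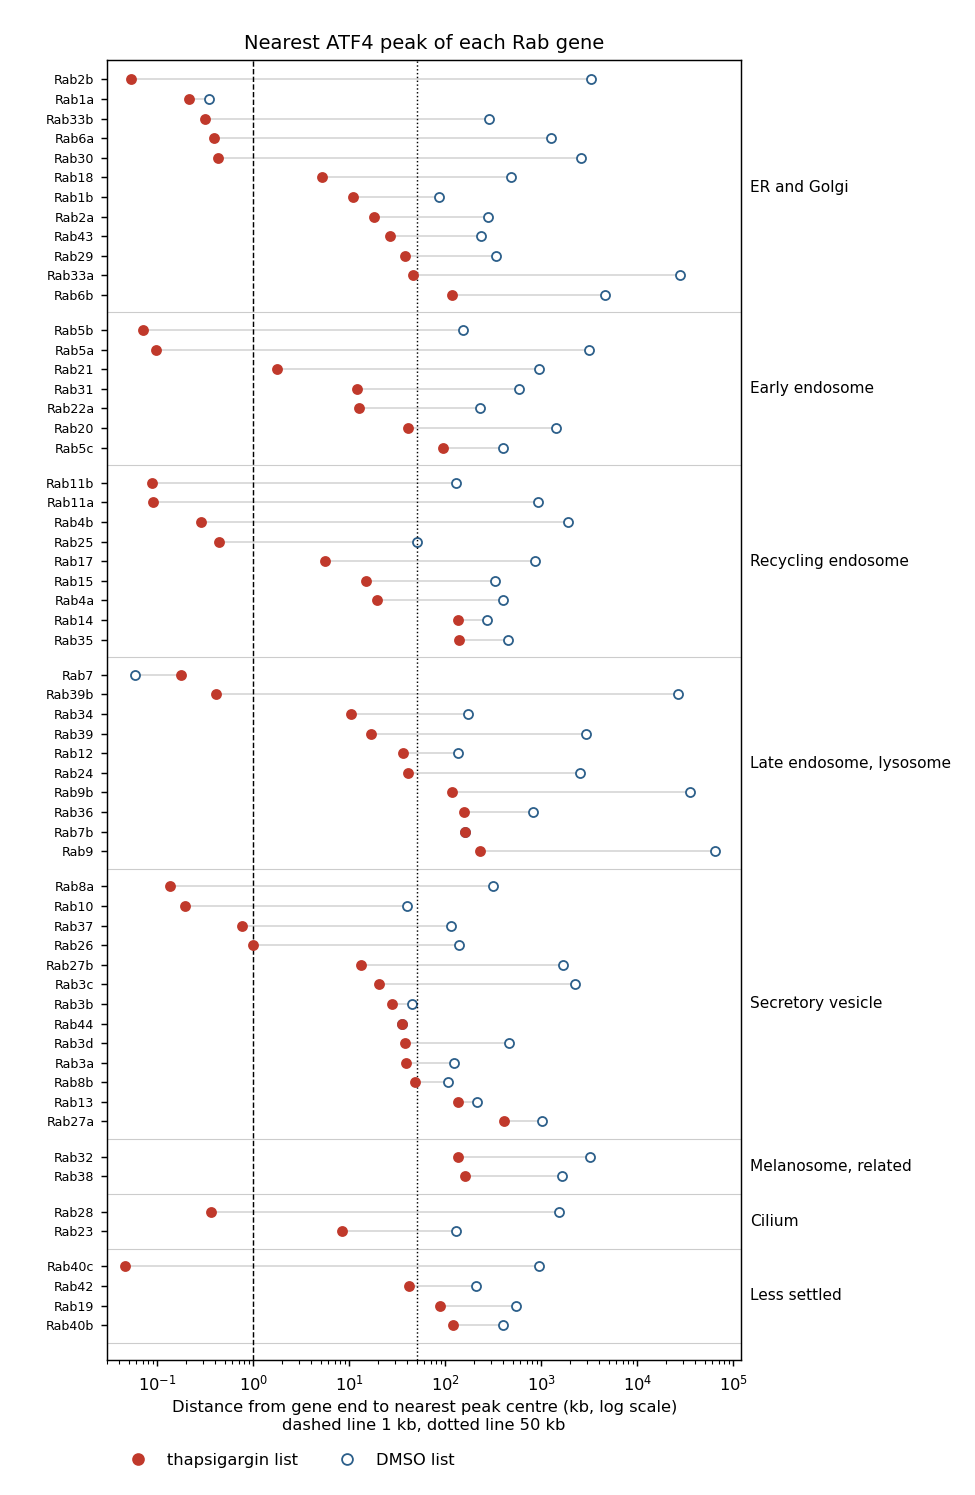
Distance in kb (log scale) from an end of each of the 59 Rab genes to the centre of the nearest ATF4 peak, with the thapsigargin list as filled and the DMSO list as open circles, 1 row per gene, grouped by compartment. Left of the dashed line at 1 kb lie 19 filled circles and 2 open ones, those of Rab1a and Rab7; at Rab7b and Rab44 the filled circle covers the open one.

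Where the strand was known, the marks were almost all at gene starts. The promoter table gave a start and strand for 48 members, including 16 of the 19. In 15 of these 16 the peak had its centre within 1 kb of the start and covered it. How often the end peaks of all protein-coding genes lay at a start was not counted, so this placement is not shown to be particular to Rab genes. Rab25, an endosomal Rab of epithelia, was the exception: its peak (chromosome 3, 88541705 to 88543223) sat at the 3′ end, centred 435 bp inside the gene and 5815 bp downstream of the start. That centre was 1070 bp from an end of the neighbouring gene Mex3a. For Rab26, Rab30 and Rab37 the table gave no start. Counted over starts alone, Rab genes had 16 of 48 with a thapsigargin peak (33.3%, interval 20.4% to 48.4%), against 16.4% of the 17273 protein-coding genes with a start in that table. In DMSO the start count was 2 of 48 (4.17%), against 1.38%.

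The additional gene in the start count was Rab21, which acts in early endosomes and the uptake of integrins. Its peak (chromosome 10, 115315373 to 115315983, 611 bp wide) was centred 1741 bp inside the annotated gene span, and so counted as a body peak. The annotated start in the promoter table lies within that span, and the peak was centred 87 bp upstream of it. Of the 16 start peaks, all of which covered a start, 6 were centred upstream of it and 10 downstream.

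**Figure D2:**
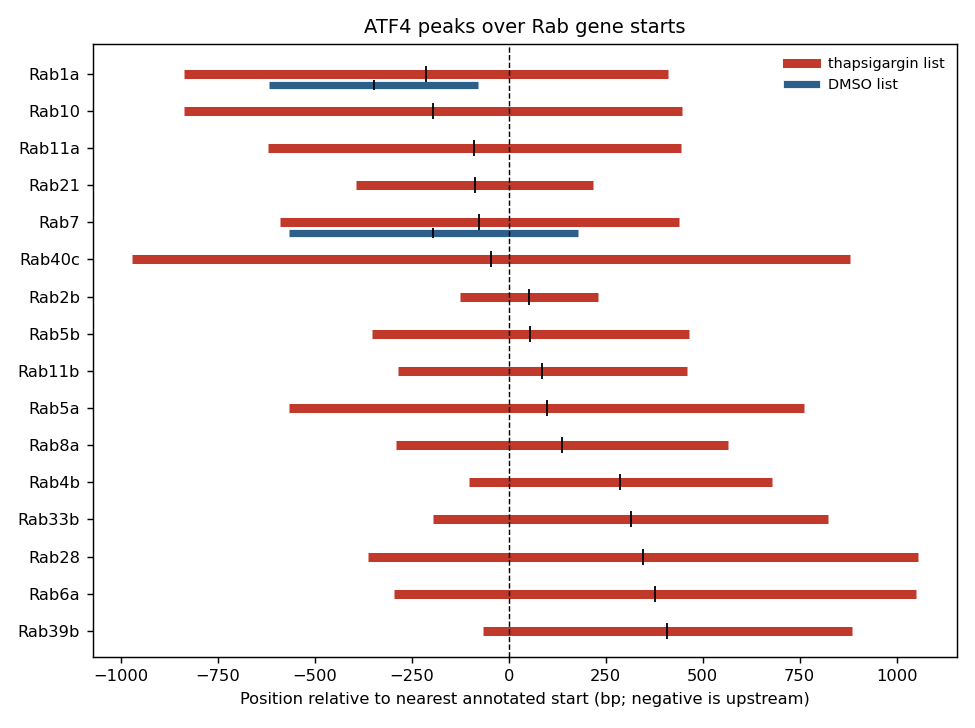
Extent of the ATF4 peak over the nearest annotated start of 16 Rab genes, in bp, with negative values upstream; red bars are peaks of the thapsigargin list, blue bars those of the DMSO list, and black ticks are peak centres. Every red bar crosses the dashed line at the start, whereas the blue bar of Rab1a ends before it and that of Rab7 crosses it.

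The peaks at Rab gene ends were close in width to the rest of the list. They ran from 354 bp at Rab2b to 1852 bp at Rab40c with a median of 1065 bp, against 1037 bp over the whole thapsigargin list. Their centres lay a median of 212.5 bp from the gene end, and 17 of the 19 were within 500 bp. Of all protein-coding genes, 3266 had a peak centre within 1 kb of an end, and 2700 of them within 500 bp. The members next to the limit of 1 kb were Rab37 (764.5 bp) and Rab26 (981 bp) inside it, and Rab21 (1741 bp) and Rab18 (5.20 kb) outside.

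Neighbouring genes shared 5 of these 19 peaks. The peak at Rab2b covered the start of that gene, with its centre 52.5 bp inside Rab2b and 196.5 bp from an end of Tox4. The one at Rab5b was centred 71 bp from that gene and 325 bp from Pmel. At Rab6a the centre was 388 bp from Rab6a and 338 bp from Mrpl48. The peaks counted for Rab37 and Rab26 lay outside these genes and closer to another one, 196.5 bp from Slc9a3r1 and 135 bp from Traf7. With the gene of the nearest end only, 16 Rab genes were marked (27.1%), against 12.6% of all genes. Without any shared peak 14 remained (23.7%), against 10.0% of all genes.

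Among the Rabs of the ER and Golgi, 5 of 12 had a thapsigargin peak at a gene end. Besides Rab1a these were Rab2b, Rab6a, Rab30 and Rab33b. Rab2b belongs to the pair of Rab2 genes that act between ER and Golgi, and its peak (chromosome 14, 52279166 to 52279519) was the narrowest of all 19. Rab6a directs transport from and within the Golgi, and its peak ran from 100607291 to 100608635 on chromosome 7, 1345 bp wide. Rab33b, a Golgi Rab that also binds the autophagy protein ATG16L1, had a peak of 1018 bp (chromosome 3, 51483772 to 51484789) centred 314.5 bp into the gene.

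Rab30, a Golgi Rab, had the second widest of these peaks, with 1740 bp (chromosome 7, 92741193 to 92742932). It was centred 425.5 bp inside the gene, and the nearest end of another gene was 72.0 kb away. The other ER and Golgi Rabs had their nearest thapsigargin peak at 5.20 kb (Rab18, of the ER and lipid droplets), 10.9 kb (Rab1b, where the peak was 217 bp from Yif1a), 18.2 kb (Rab2a), 26.7 kb (Rab43), 38.1 kb (Rab29), 45.9 kb (Rab33a) and 118 kb (Rab6b). So in this group the paralogues Rab1a, Rab2b, Rab6a and Rab33b were marked while Rab1b, Rab2a, Rab6b and Rab33a were not.

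The Rabs of early endosomes had 2 of 7 marked at a gene end, Rab5a and Rab5b, which control the fusion of early endosomes. Rab5a had a peak over its start (chromosome 17, 53478667 to 53479996, 1330 bp) and another one inside the gene, centred 9.46 kb from that end and 1185 bp wide. Rab5b had a peak of 817 bp (chromosome 10, 128695805 to 128696621). Rab5c, the remaining paralogue, had its nearest peak 95.2 kb away. Rab21, Rab22a and Rab31 had a body peak but none at an end, and Rab20 had its nearest one 41.1 kb off.

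The recycling Rabs had 4 of 9 marked, namely Rab11a and Rab11b, which return cargo from the recycling endosome to the plasma membrane, Rab4b, which acts in fast recycling, and Rab25. Rab11a had a peak of 1065 bp (chromosome 9, 64737313 to 64738377) centred 89 bp upstream of the start. The Rab11b peak was 743 bp wide (chromosome 17, 33760028 to 33760770), with its centre 87 bp downstream. At Rab4b the peak spanned 27178205 to 27178986 on chromosome 7, 782 bp, centred 287.5 bp into the gene, while its paralogue Rab4a had none nearer than 19.2 kb. Rab17 and Rab15 had a peak 5.56 kb and 14.9 kb away, and Rab14 and Rab35 had none within 50 kb.

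Among the late endosomal, lysosomal and autophagic Rabs, 2 of 10 were marked, Rab7 and Rab39b. Rab39b, an X-linked gene whose human counterpart is mutated in intellectual disability with parkinsonism, had a peak from 75577346 to 75578298 (953 bp), centred 409 bp into the gene. Another 4 had a peak within 50 kb, at 10.4 kb (Rab34), 16.7 kb (Rab39), 36.5 kb (Rab12) and 40.8 kb (Rab24, linked to autophagy). Rab7b, Rab9, Rab9b and Rab36 had none there.

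The Rabs of secretory vesicles had 4 of 13 marked. Rab8a, which directs vesicles to the plasma membrane and the cilium, had a peak of 856 bp (chromosome 8, 72160909 to 72161764). Rab10, which acts in the exocytosis of the glucose transporter GLUT4, had one of 1283 bp (chromosome 12, 3309523 to 3310805) and a second, 2297 bp wide, 11.3 kb beyond its other end. That second peak was wider than 99.1% of the thapsigargin list, and no gene end was closer than that of Rab10. The other marked members were Rab26 and Rab37, with the shared peaks given above. A window of 500 bp therefore left 2 of 13 (15.4%), against 12.5% of all genes.

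None of the 4 Rab3 genes, which serve regulated exocytosis in neurons and endocrine cells, was marked, against 15.1% of all genes. A count of 4 genes is too small to set them apart. Their nearest peaks were at 20.2 kb (Rab3c), 27.8 kb (Rab3b), 37.5 kb (Rab3d) and 38.8 kb (Rab3a). Rab27b had a body peak, Rab44 and Rab8b had peaks at 35.2 kb and 47.9 kb, and Rab13 and Rab27a had none within 50 kb.

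In the small groups, Rab28 of the cilium had a peak over its start (chromosome 5, 41707124 to 41708542, 1419 bp), and Rab23, a regulator of Hedgehog signalling at the cilium, had one 8.46 kb away. Neither Rab32 nor Rab38, the Rabs of melanosomes, had a peak within 50 kb, where 51.1% of all genes had one. Of 4 members with a less settled compartment, Rab40c, part of a ubiquitin ligase, had the widest Rab peak (chromosome 17, 25918834 to 25920685, 1852 bp), centred 45.5 bp from its start. Rab42 had a peak at 41.8 kb, and Rab19 and Rab40b had none within 50 kb. Against the 15.1% of all genes, the share of marked members was 41.7% in the ER and Golgi group, 28.6% in early endosomes, 44.4% in recycling, 20% in the late endosomal group and 30.8% on secretory vesicles. With 7 to 13 genes in each of these groups, their order was not tested. It also depended on the definition. Counted over starts alone, the same groups in turn had 4 of 9, 3 of 7, 3 of 8, 2 of 8 and 2 of 9 marked. Of all genes with a start, 16.4% were.

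**Figure D3:**
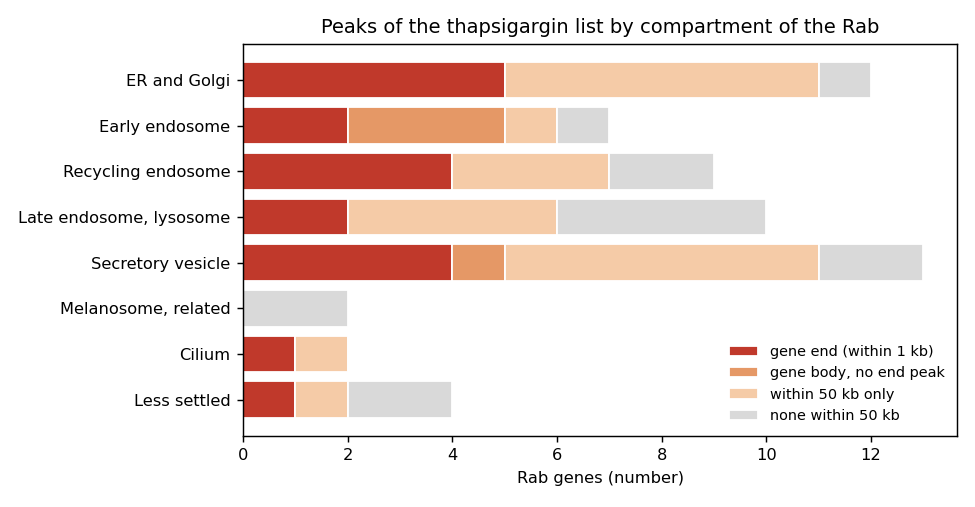
Number of Rab genes (horizontal axis) by the compartment they serve, divided by where they had an ATF4 peak of the thapsigargin list: at a gene end, in the body but at no end, within 50 kb only, or none. All but the pair of melanosome Rabs hold at least 1 gene with a peak at its end, with 5 of 12 in the ER and Golgi group and 2 of 10 in the late endosomal group.

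Paralogues were compared by the number they share. Of the 42 numbers in the family, 14 are shared by several genes. All genes of a number were marked for 1 of the 14 (Rab11), some but not all for 10, Rab5 with both Rab5a and Rab5b among them, and none for 3 (Rab3, Rab9 and Rab27). Whether paralogues were marked together more or less often than other Rab genes was not tested.

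Inside gene bodies, over 1 kb from both ends, 5 of 59 Rab genes had a thapsigargin peak (8.47%, interval 2.81% to 18.7%), against 10.1% of all genes, so the share was near that of all genes. These were Rab5a, Rab21, Rab22a, Rab27b and Rab31, each with 1 body peak, though that of Rab21 covered its annotated start. Rab22a, an endosomal Rab, had its peak (chromosome 2, 173689245 to 173690262) 12.4 kb from the nearer gene end. In Rab31, which acts between Golgi and endosomes, the peak (chromosome 17, 65737430 to 65738110) lay inside the gene, 35.0 kb downstream of its start. The Rab27b peak was 13.3 kb from a gene end; Rab27b serves the release of exosomes and secretory granules. In DMSO no Rab gene had a body peak, against 1.3% of all genes, and a count of 0 of 59 allows a share of up to 5.08% when 3 counts are taken as the limit, or up to 6.06% by the exact interval used elsewhere.

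Within 50 kb or inside the gene, 45 of 59 Rab genes had a thapsigargin peak (76.3%, interval 63.4% to 86.4%), against 51.1% of all genes. In DMSO 5 of 59 did (8.47%, interval 2.81% to 18.7%), against 8.01%. Of the 45, 22 had neither an end nor a body peak, and for 15 of these 22 another gene's end was closer to the peak than that of the Rab gene. The matching share over all genes was not counted. Nearest to a peak among the 22 were Rab18, Rab17, Rab23, Rab34 and Rab1b, at 5.20, 5.56, 8.46, 10.4 and 10.9 kb. The 14 members with none within 50 kb had their nearest peak 87.9 to 405 kb away. In all, 68 thapsigargin and 5 DMSO peaks lay in or within 50 kb of a Rab gene, and all 5 DMSO peaks overlapped one of the thapsigargin list. That overlap was not counted over the whole DMSO list. Of all protein-coding genes, 278 were marked at an end in DMSO and 274 in both lists, so such sharing is not particular to Rab genes.

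The windows around gene ends gave the same order in thapsigargin at every size from 250 bp (16.9% of Rab genes, against 8.11% of all genes) to 100 kb (79.7%, against 64%). In DMSO the order changed with the window, with 3.39% of Rab genes against 4.08% of all genes within 20 kb and 8.47% against 7.7% within 50 kb.

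Besides Rab1a and Rab7, the DMSO peaks in reach were those near Rab10, Rab3b and Rab44, and each was closer to another gene. The one near Rab44, a Rab of mast cell granules, was centred 35.2 kb from it and 12047.5 bp from Cdkn1a, the gene of the cell cycle inhibitor p21. It spanned 29078272 to 29079591 on chromosome 17, 1320 bp, where the thapsigargin peak spanned 29078227 to 29079534, 1308 bp. The DMSO peak near Rab3b was 156 bp from an end of Btf3l4, and that near Rab10 was 15.2 kb from Kif3c.

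**Figure D4:**
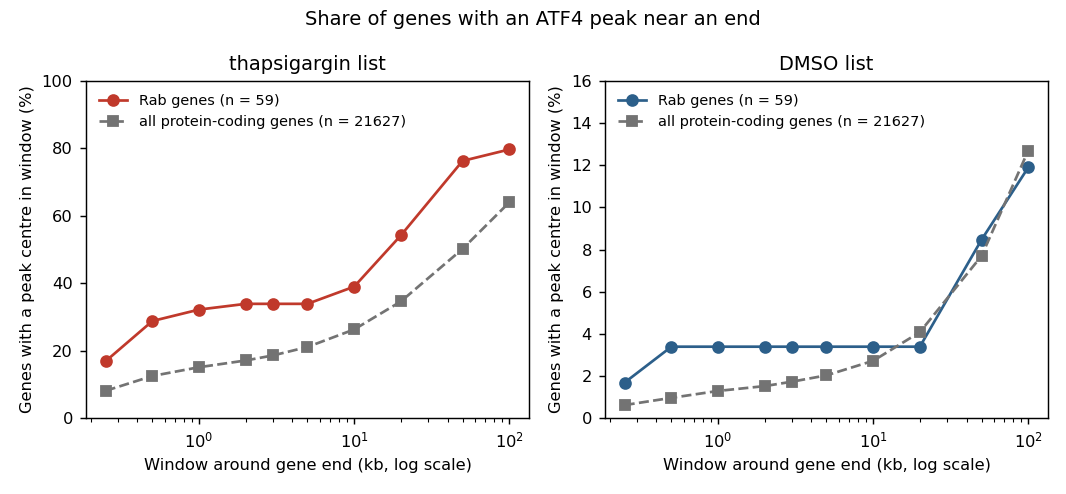
Percent of the 59 Rab genes (circles) and of all 21627 protein-coding genes (squares) with an ATF4 peak centred within a given distance of a gene end, in kb on a log scale, for the thapsigargin list (left) and the DMSO list (right), whose vertical axes differ. At 1 kb the circles stand at 32.2% in thapsigargin and 3.39% in DMSO, and the squares at 15.1% and 1.29%.

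Gene length bears on body and distance counts. The median length was 23.2 kb for Rab genes and 17.3 kb for other protein-coding genes. Among genes up to 8.94 kb, 3 of 9 Rab genes had a thapsigargin peak at an end, against 10.3% of all genes of that length. In the middle class, up to 31.7 kb, it was 9 of 31 (29%) against 18.1%, and among longer genes 7 of 19 (36.8%) against 16.9%. The share of Rab genes stood above that of all genes in each of the 3 classes. Body peaks were found in 3 of 19 long Rab genes, against 23.3% of all long genes.

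The base composition of the promoters was compared as well. In windows from 250 bases before to 50 after a start, the median GC content was 63.7% in the 17 Rab windows with a thapsigargin peak within 1 kb and 60.3% in the 43 without. Over protein-coding genes the medians were 62.3% with a peak and 55.3% without. The median number of CG dinucleotides per window was 25 and 18 in Rab windows with and without a peak, and 23 and 10 over protein-coding genes. The part of base composition in the share of marked Rab genes was not tested. Rab39b stood apart with 35.7% GC, the lowest of all 60 Rab windows.

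The letters that ATF4 and related factors are known to bind were looked for in the same windows, on both strands. TGATGNAA, a form of the composite C/EBP-ATF site, was found in 2 of 60 Rab windows (3.33%), against 3.45% of the 21044 windows of protein-coding genes. Those 2, Rab21 and Rab39b, both had a thapsigargin peak at the start. Over protein-coding genes these letters were in 3.71% of windows with a thapsigargin peak and 3.4% of those without. TGATGCAA, the usual spelling of that site, was in none of the Rab windows, against 0.851%. The 30 bases around the matches are shown with TGATGNAA, here on the opposite strand, in capitals.
Rab39b (chrX:75578182-75578211, minus strand): tgctgctgccaTTTCATCAcctttgcgagc
Rab21 (chr10:115315734-115315763, minus strand): cctgtattctaTTCCATCAgagtggggtca
With positions counted from 1 at the first transcribed base and negative before it, without a zero, the match begins at position 32 in Rab39b and at position -161 in Rab21.

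A related spelling, TGANGCAA, overlaps TGATGNAA where N is T and was looked up after the sequences had been read. It was present in 3 of 60 Rab windows (5%), against 3.48% of protein-coding windows. Rab7 held it as TGACGCAA at position -48 of its upstream start, inside the peaks of both lists. Rab5a held it as TGACGCAA at position -231, and Rab42, which was not marked, as TGAAGCAA. Over protein-coding windows it was in 5.69% with a peak and 3.07% without.

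The cAMP response element TGACGTNA, which CREB and ATF family factors bind, was in 5 of 60 Rab windows (8.33%), against 3.49% of protein-coding windows. Of the 5, Rab5a, Rab6a and Rab11b had a thapsigargin peak at the start, and Rab3a and Rab25 did not. That is 3 of 17 Rab windows with a peak (17.6%) and 2 of 43 without (4.65%), beside 8.34% and 2.59% of protein-coding windows with and without one. TCACGTGA, the E-box form bound by the lysosomal regulators TFEB and TFE3, was in 3 windows (5%), against 1.25%. They were those of Rab5a and Rab21, which had a thapsigargin peak at the start, and Rab24, which had none there. Over protein-coding windows the share was 2.07% with a peak and 1.09% without. The AP-1 letters TGANTCA were in 3 windows (5%), against 7.04%, and TGACGTGG, an ATF6 and XBP1 form, was in none, against 0.713%.

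The 250 bases before the start of 3 marked genes are given with these letters in capitals, to show where they stand. Rab5a (chr17:53478984-53479233, plus strand) carried 3 different ones, TGACGCAA at position -231, TCACGTGA at position -96 and TGACGTCA at position -28. Rab6a (chr7:100607336-100607585, plus strand) carried TGACGTAA at position -69, and Rab11b (chr17:33760487-33760736, minus strand) TAACGTCA, a match on the opposite strand, at position -190.
Rab5a: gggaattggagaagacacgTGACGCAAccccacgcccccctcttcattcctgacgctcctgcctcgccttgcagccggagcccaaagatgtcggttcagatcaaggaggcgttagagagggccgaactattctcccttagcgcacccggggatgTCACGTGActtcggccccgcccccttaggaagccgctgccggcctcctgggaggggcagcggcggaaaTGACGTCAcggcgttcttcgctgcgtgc
Rab6a: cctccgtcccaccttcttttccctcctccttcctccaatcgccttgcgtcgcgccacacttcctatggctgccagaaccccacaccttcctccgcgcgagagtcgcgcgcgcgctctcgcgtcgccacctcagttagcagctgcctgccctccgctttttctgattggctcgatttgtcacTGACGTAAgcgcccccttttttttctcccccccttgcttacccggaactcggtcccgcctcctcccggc
Rab11b: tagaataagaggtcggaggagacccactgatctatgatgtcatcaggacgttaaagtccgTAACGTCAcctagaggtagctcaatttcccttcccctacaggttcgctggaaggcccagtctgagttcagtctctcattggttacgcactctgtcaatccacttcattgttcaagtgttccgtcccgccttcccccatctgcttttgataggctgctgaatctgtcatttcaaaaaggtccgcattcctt
Each of these matches lies inside the thapsigargin peak of its gene. They are matches of letters and do not show where ATF4 sat.

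The genes of proteins that load, switch and read Rabs were looked at next. Of 128 distinct genes in 4 lists, 28 had a thapsigargin peak at an end (21.9%), against 15.1% of all genes, and 1 had a DMSO peak (0.781%), against 1.29%. The list of lipid attachment and recycling had 3 of 8 marked, with Rabggta (448 bp) and Rabggtb (652 bp), the subunits of the enzyme that adds the lipid tail, and Rabac1 (592 bp), a membrane receptor of prenylated Rabs.

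The exchange factors had 9 of 40 (22.5%), against 15.1% of all genes. The widest peaks were those at Trappc3 (1488 bp) and Trappc1 (1448 bp), subunits of the TRAPP complex that activates Rab1, at Sbf1 (1286 bp) and at Rab3gap2 (1157 bp), part of the activator of Rab18. The GTPase-activating proteins had 7 of 36 (19.4%), and among them was the only gene of the 4 lists with a DMSO peak. This was Tbc1d17, whose peak spanned 44848674 to 44850606 on chromosome 7 in thapsigargin (1933 bp) and 44849264 to 44850406 in DMSO (1143 bp). Tbc1d9 (1531 bp), Evi5l (1119 bp), Tbc1d25 (979 bp), which acts on Rab33b, and Tbc1d10c (978 bp) followed in width.

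The effectors had 9 of 44 (20.5%), against 15.1% of all genes. The widest peaks were at Bicd2 (1729 bp), a dynein adaptor that binds Rab6, Appl1 (1602 bp) and Eea1 (1289 bp), which bind Rab5 on early endosomes, and Rab11fip3 (1369 bp), which binds Rab11. Of other small GTPases, 7 of 28 Arf and Arl genes (25%) and 5 of 19 Ras genes (26.3%) were marked in thapsigargin. Rab genes stood at 32.2% and all genes at 15.1%. Neither the Arf nor the Ras family had a member marked in DMSO, where 1.29% of all genes were marked. These differences were not tested, so the share of Rab genes is not shown to stand above that of either family.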

How the data were processed

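ATF4 was mapped by CUT&Tag in C2C12 cells. The authors deposited 1 list of peak positions per treatment, chromosome, start and end without height, score or p. Per the submitters' processing notes, the tools included MACS2 2.2.7.1, Bowtie2 and Trim Galore 0.6.10, and coordinates are on mm10. The sources used here do not give their roles, the threshold or how 2 replicates became 1 list, so depth is unknown. The other 8 groups were not analysed here.

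Genes came from the RefSeq table of GRCm38.p6, to which mm10 corresponds, and starts, strands and sequences from its promoter table, which held 48 of 59 members. A peak was placed by its centre. Exons and introns were not told apart. Coordinates count from 1. Shares carry exact Clopper-Pearson intervals at the 95% level. No test was made, since each treatment has 1 list and genes are not replicates. The members and lists were chosen with earlier results of these data known. Every member is named, and each regulator list by its DMSO-marked genes and the 4 widest thapsigargin peaks of the rest. Some results are not reported here. Rab39b's stretch was shown by rule, as the marked start with TGATGNAA at a gene end, and the other sequences were picked after they had been seen. TGANGCAA was likewise added after seeing the sequences. Alternatives were windows of 500 bp, 3 kb and 5 kb, peak edges, the wider part of each list, starts only, nearest genes and other distances.

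Intervals came from scipy 1.17.1, tables from pandas 2.3.3 and numpy 2.4.6, and plots from matplotlib 3.10.9, under Python 3.11.15. The placing of peaks was tested on simulated data, where 200 of 200 planted genes were found.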

Additional observations from a re-analysis of the deposited data

How the results depend on the processing

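No paired analysis was possible because each treatment has a single list for both replicates, which also bars leaving a replicate out. Of 146 alternative counts, 116 equalled the main count or were within 1.5 times it. These include counts of 0 that stayed 0, which say little about stability. The wider part of each list by width held 4310 thapsigargin and 402 DMSO peaks, fewer by construction. It gave 10 of 59 Rab genes marked at an end in thapsigargin (16.9%, against 7.56% of all genes). In DMSO it gave 0, against 0.74% of all genes, and thus 0 in both lists, against 0.684%. With it 1 Rab gene had a thapsigargin body peak (1.69%, against 5.88% of all genes). Within 50 kb, 26 had a thapsigargin peak (44.1%, against 32.3%) and 2 a DMSO peak (3.39%, against 4.39%). By compartment, beside the same 7.56%, the wider part gave 3 of 12 in the ER and Golgi group (25.0%) and 1 of 7 in early endosomes (14.3%). Recycling had 2 of 9 (22.2%), the late endosomal group 0 of 10 and secretory vesicles 2 of 13 (15.4%). Outside the family it gave 0 of 8 in the lipid attachment list and 4 of 40 activators (10.0%). Inactivators had 3 of 36 (8.33%) and Arf genes 3 of 28 (10.7%). A window of 500 bp marked 12.5% of all genes in thapsigargin and 0.962% in DMSO. It gave 2 of 13 secretory vesicle Rabs (15.4%), and 3 of 36 inactivators in thapsigargin (8.33%) and 0 in DMSO. Ras genes had 2 of 19 (10.5%), so they and the inactivators fell below the thapsigargin share of all genes. Windows of 3 kb gave 3 inactivators (8.33%) and 1 effector (2.27%) in DMSO, against 1.73% of all genes. Those of 5 kb gave 14 activators (35.0%) and 11 inactivators (30.6%) in thapsigargin, against 21.1%. In DMSO they gave 1 activator (2.5%), 4 inactivators (11.1%) and 1 effector (2.27%), against 2.03%. Peak edges gave 2 inactivators in DMSO (5.56%, against 1.41%). Within 20 kb 2 Rab genes had a DMSO peak (3.39%, against 4.69%). TGATGCAA in place of TGATGNAA gave 0 Rab windows. Of the 19 marked Rab genes, 2 (Rab26 and Rab37) were lost with 500 bp and 9 in the wider part of the list, and none with 3 kb, 5 kb or peak edges. With genes that had a peak within 50 kb as background, 19 of 45 Rab genes were marked (42.2%), against 29.5%. The number and width of peaks depend on depth and threshold, which limits every count here.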

Other observations

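Genes related to Rabs by family or only by name (as Rab5if), which the naming rule leaves out, were also looked up, after the results above had been seen. Of 8 such genes (Ran, Rabl2, Rabl3, Rabl6, Rab5if, Rasef, Ift22 and Ift27), 2 had a thapsigargin peak at a gene end, against 15.1% of all genes, and 1 had a DMSO peak there, against 1.29%. Ran, the GTPase of transport between nucleus and cytoplasm, was marked in both lists, with the peak centre 505.5 bp from a gene end in thapsigargin and 485.5 bp in DMSO. Rabl3 had a thapsigargin peak of 1030 bp centred 120.5 bp from its end, with no DMSO peak nearer than 746 kb. Rabl6 had its nearest thapsigargin peak 8.12 kb away, and the other 5 had none within 50 kb.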
